A study of Homo sapiens with 8 samples.

Results

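The nuclear-encoded respiratory chain subunits are the proteins of the inner mitochondrial membrane that carry electrons to oxygen and make ATP, as far as their genes lie in the nucleus. They were chosen by gene symbol, as the NDUFA, NDUFB, NDUFC, NDUFS and NDUFV genes, SDHA to SDHD, the UQCR genes, the COX subunit genes 4 to 8, the ATP5F, ATP5M and ATP5P genes, and CYC1, CYCS and ATP5IF1, without assembly factors. This gave 83 of 18508 genes, of which 33 belong to complex I, 4 to complex II, 10 to complex III, 16 to complex IV and 19 to complex V, with cytochrome c as the last. The rule reads gene symbols and no measured value, but it was set with earlier results of these data known. The subunit genes COX7C, NDUFC2, NDUFS1, NDUFS8, ATP5MK and ATP5F1E were found under no name in the table and were not analysed here. NDUFA4, now called COXFA4 and assigned to complex IV, and ATP5MPL, now ATP5MJ, were found under older symbols. ATP5F1EP2 is annotated as a pseudogene, and ATP5MF-PTCD1 as a readthrough transcript. Short probes may not tell these from their parent genes, or UQCRHL from UQCRH, so their values are uncertain.

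Gene expression was measured in ASC52telo cells, a human adipose-derived stem cell (ADSC) line that carries hTERT to keep it dividing. It is 1 line, so the spread between arrays is not a spread between donors. In all 3 groups the cells had 24 h without serum, followed by a treatment time of 72 h. During it the SAHA group (3 arrays) had 1000 nM SAHA, a histone deacetylase inhibitor dissolved in ethanol. The EtOH group (2 arrays) had this solvent alone, and the untreated group (3 arrays) had neither solvent nor drug. In the study's methods 24 h of fresh medium followed. The deposited values are log2 expression, and the medians of the arrays over all genes ran from 0.26 to 0.33. Where the scale has its zero is unknown, so levels are compared between arrays for the same gene, and not between genes. A gene near these medians has little room to fall. The replicate numbers 1, 2 and 3 had equal means in every gene, so differences between them had been removed before deposit. Replicate 2 has only an untreated and a SAHA array, which therefore mirror each other around the mean of each gene.

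Complex I takes electrons from NADH and complex II takes them from succinate, and both hand them to ubiquinone. Complex III passes them on to cytochrome c, and complex IV to oxygen. Complexes I, III and IV pump protons, whose flow back through complex V, the ATP synthase, drives ATP synthesis. Most subunits are encoded in the nucleus, and a core set of complexes I, III, IV and V is encoded by mitochondrial DNA. Of 13 mitochondrially encoded subunit genes, 0 are on the list of measured genes. Undifferentiated mesenchymal stem cells are known for drawing much of their ATP from glycolysis. Nothing here measures protein, respiration or mitochondrial number.

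The labelled cell type was checked by marker genes. The 6 adipose stem cell markers had mean log2 levels of 4.60 to 8.25, above the array medians. Probes of different genes do not share a scale, so this check is a coarse one. The 5 adipocyte markers lay between -0.21 and 0.10 and the 5 blood cell markers between -0.26 and 0.47. The 4 endothelial markers reached 0.88 (VWF) and the 5 muscle markers 1.62 (TNNT2). Of the 83 subunit genes, 7 had a mean below the highest array median (8.43%, against 52.2% of all genes). They were NDUFS7, UQCRHL, COX6B2, COX7B2, COX8C, ATP5MGL and ATP5MF-PTCD1. COX6B2, COX7B2 and COX8C are isoforms known from testis.

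Subunit gene expression did not move as a block in SAHA-treated ADSCs. The median log2 fold change of SAHA over the 5 combined controls was -0.0031 over the 83 genes and -0.034 over all genes, with 41 subunit genes above 0 and 42 below. The range was from -0.67 for ATP5PD to 0.63 for UQCR11. In limma, 0 of the 83 genes were called higher and 0 lower, where a call is an adjusted p under 0.05 with a fold of at least 1.5. Among all genes 0.438% were called higher and 0.297% lower, so that a set of this size would hold few calls at the background rate. At an unadjusted p under 0.05, 6 subunit genes were higher (7.23%, against 5.82% of all genes) and 4 were lower (4.82%, against 9.58%). The SAHA arrays lay above every control array in 3 subunit genes (3.61%, against 4.21% of all genes) and below every control in 2 (2.41%, against 6.25%). These shares are near or under the background. The 6 genes on the higher side were COX6B1, ATP5F1A, COX6A1, ATP5MC3, ATP5MC2 and UQCR11, and the 4 on the lower side were ATP5PD, NDUFS5, NDUFB2 and COX6A2.

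The absence of calls has a measured width. The 95% interval of the log2 fold change, from limma, lay within 1.5-fold in both directions for 58 of the 83 genes, and for 45 with the replicate number as a block. It reached a 2-fold change in 2 genes, ATP5PD (-1.08 to -0.25) and UQCR11 (0.09 to 1.17). The median standard error of the subunit genes was 0.15 on the log2 scale, against 0.12 over all genes.

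**Figure D1:**
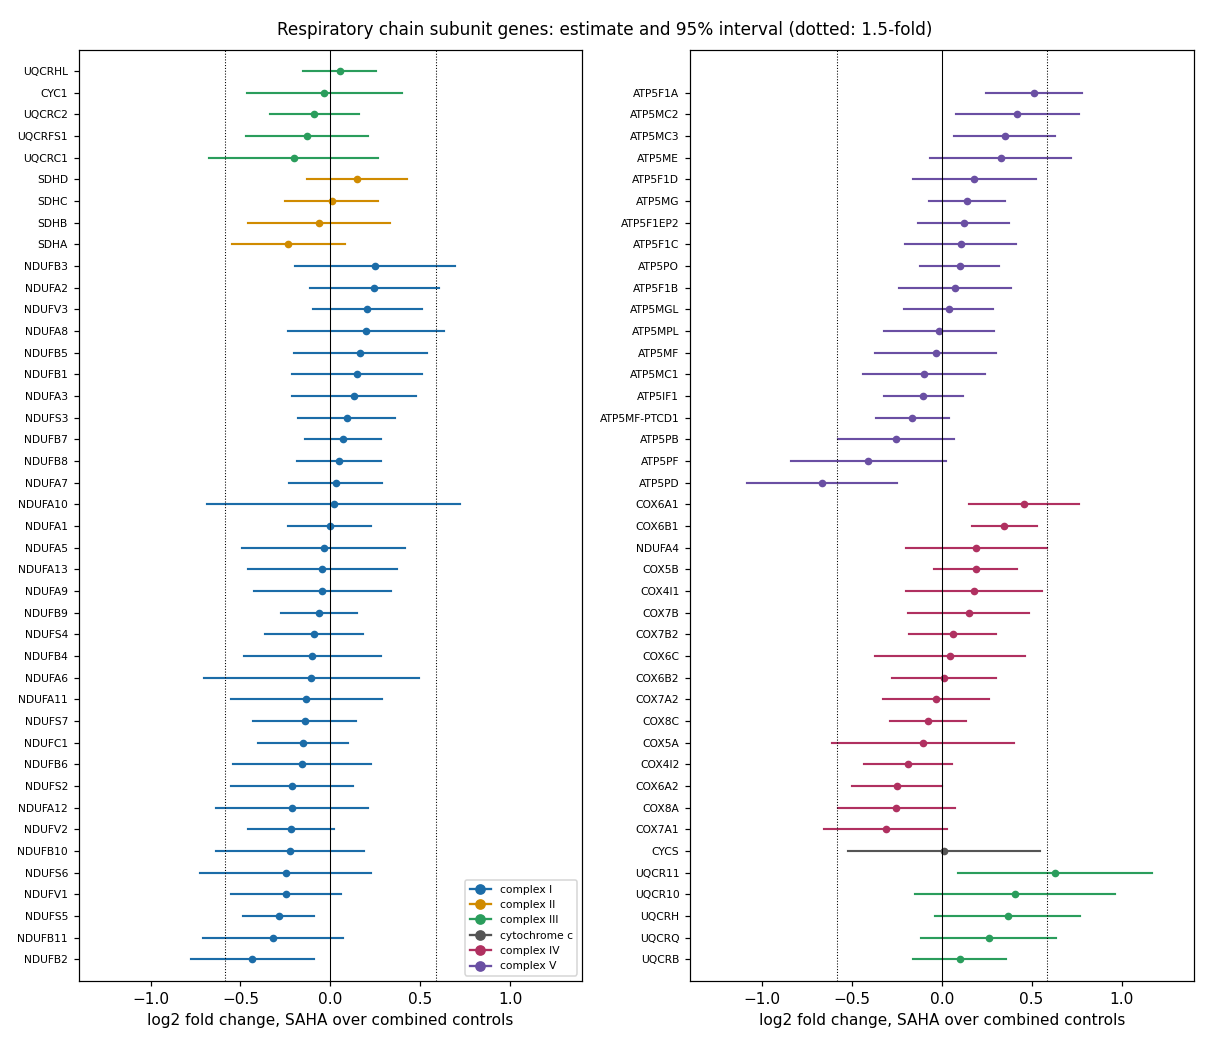
Each point is the log2 fold change of SAHA (3 arrays) over the combined controls (5 arrays) for 1 of the 83 subunit genes, coloured by complex and ordered within it, and bars are 95% intervals from limma. The solid line is no change and the dotted lines are 1.5-fold; 2 estimates, UQCR11 at 0.63 and ATP5PD at -0.67, lie beyond them.

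COX6B1, a subunit of complex IV that faces the intermembrane space, had the smallest p of the 83 genes. Its log2 expression was 2.09, 1.99 and 2.08 in untreated replicates 1, 2 and 3, 2.07 and 2.01 in EtOH replicates 1 and 3, and 2.38, 2.37 and 2.44 in SAHA replicates 1, 2 and 3. All SAHA arrays lay above all controls, which spanned only 0.10. SAHA exceeded the controls by 0.35 log2 units (standard error 0.08, 1.27-fold, adjusted p = 0.083 from limma), short of the threshold. ATP5F1A, the alpha subunit of the catalytic head of ATP synthase, was at 2.91, 2.86 and 3.14 in untreated cells and at 3.23 and 2.78 with EtOH. It was at 3.39, 3.49 and 3.62 with SAHA, again above every control. The difference of means was 0.51 log2 units (standard error 0.12, 1.43-fold, adjusted p = 0.083). The adjusted p was 0.048 with quantile normalization and 0.035 with array weights, and that of COX6B1 was 0.042 with array weights and 0.046 in the methods' t-test. The fold stayed under 1.5 in each of these, so neither gene was called. With the replicate block the smallest adjusted p of the 83 genes was 0.30.

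**Figure D2:**
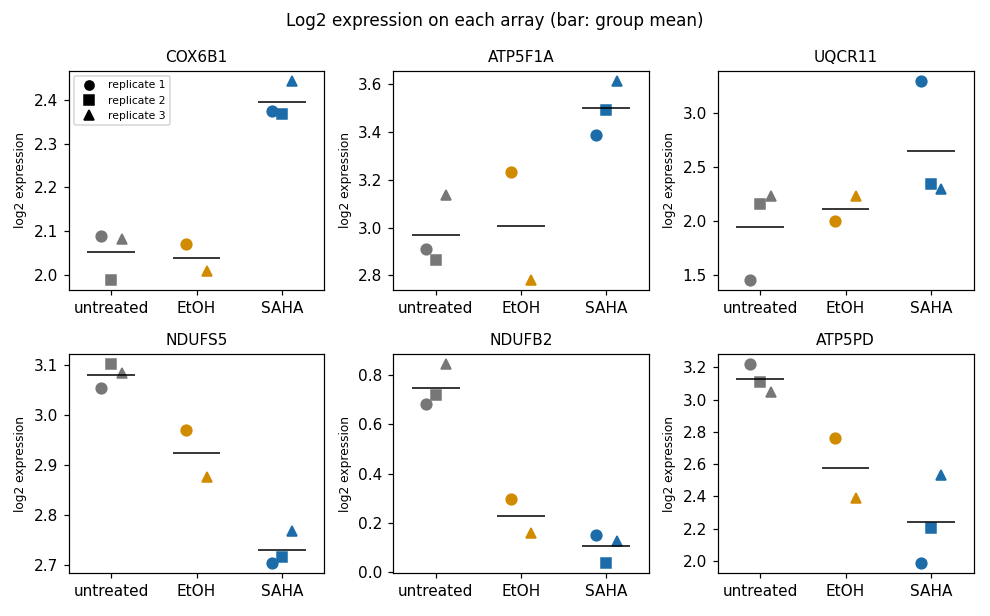
Log2 expression of 6 subunit genes on each of the 8 arrays, by group, with symbols for the replicate number and a bar at the group mean; each panel has its own vertical scale, which does not start at 0. SAHA arrays lie above all controls for COX6B1, ATP5F1A and UQCR11 and below all controls for NDUFS5 and NDUFB2, while EtOH replicate 3 of ATP5PD (2.39) is under SAHA replicate 3 (2.53).

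Complex I had more genes below 0 than above it, 21 against 12 of 33 (36.4% above 0, against 42.4% of all genes), with a median log2 fold change of -0.062. This median was -0.034 without untreated replicate 3, -0.039 without SAHA replicate 2, -0.11 without EtOH replicate 3 and -0.13 without SAHA replicate 1. At an unadjusted p under 0.05, 0 of its genes were higher and 2 were lower (5.82% and 9.58% of all genes). Of the 5 core subunits measured, which hold the flavin and iron-sulfur clusters or bind ubiquinone, 4 had a negative value, and NDUFV2 had the smallest p among them (-0.22, standard error 0.11, adjusted p = 0.37). The other 28 are supernumerary subunits, which surround the core and are needed for its assembly and stability. NDUFS5, one of these in the membrane arm, stood out for its narrow spread. It was at 3.05, 3.10 and 3.08 in untreated cells, at 2.97 and 2.88 with EtOH and at 2.70, 2.72 and 2.77 with SAHA. The groups did not overlap, and the EtOH arrays lay between the others. Over the combined controls the difference was -0.29 log2 units (standard error 0.09, adjusted p = 0.17). On the positive side NDUFB3 (0.25, adjusted p = 0.60), NDUFA2 (0.24, adjusted p = 0.51) and NDUFV3 (0.21, adjusted p = 0.51) had the smallest p-values, and none passed. For NDUFB3, SAHA replicate 3 at 1.36 was above all other arrays, while SAHA replicates 1 and 2 at 0.75 and 0.55 lay inside the range of the controls.

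NDUFB2, an accessory subunit of the membrane arm of complex I, was a call in only 1 of the comparisons. Its log2 expression was 0.68, 0.72 and 0.84 in untreated cells, 0.30 and 0.16 with EtOH, and 0.15, 0.04 and 0.13 with SAHA. Untreated cells stood apart, EtOH and SAHA lay close together, and all EtOH and SAHA arrays were below their own array medians. Against the combined controls the log2 difference was -0.43 (standard error 0.15, adjusted p = 0.22). Against untreated cells alone it was -0.64 (standard error 0.10, adjusted p = 0.027), and this is a call. Against EtOH it was -0.12 (adjusted p = 0.67), and EtOH over untreated was -0.52 (standard error 0.11, adjusted p = 0.42). The SAHA difference from untreated cells was -0.53, -0.68 and -0.72 within replicates 1, 2 and 3. With the replicate block the adjusted p was 0.25.

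Complex II, which is also the citric acid cycle enzyme succinate dehydrogenase, had no gene near the threshold. The catalytic subunits SDHA and SDHB had log2 fold changes of -0.24 and -0.07, and the membrane anchors SDHC and SDHD of 0.01 and 0.15, with adjusted p-values from 0.47 to 0.99. SDHA ranged from 1.65 to 2.12 in the 5 controls, with a median of 1.77, and was at 1.29, 1.79 and 1.66 with SAHA. SAHA replicate 1 was the lowest of all arrays and the other SAHA arrays lay within the controls.

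In complex III the signs went by role, and no gene was called. All 6 small subunits had a positive log2 fold change, with a median of 0.31 (42.4% of all genes were positive). Only UQCR11 among them passed an unadjusted p under 0.05, and UQCRHL lay under the array medians. The other 4 genes had a negative value. These are the core proteins UQCRC1 (-0.20) and UQCRC2 (-0.09), the Rieske iron-sulfur protein UQCRFS1 (-0.13) and cytochrome c1, CYC1 (-0.03). Their smallest adjusted p was 0.69, and the sign of CYC1 turned under some of the alternatives. UQCR11, a small membrane-spanning subunit, was at 1.45, 2.16 and 2.23 in untreated cells, at 2.0007 and 2.23 with EtOH and at 3.30, 2.34 and 2.29 with SAHA. SAHA replicates 2 and 3 were above the controls by little, and SAHA replicate 1 by about a whole log2 unit. The log2 difference was 0.63 (standard error 0.24, 1.55-fold, adjusted p = 0.25), and 0.30 without SAHA replicate 1.

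The neighbouring small subunits UQCR10 and UQCRH were also highest in SAHA replicate 1. UQCR10 was at 1.71 there and at 0.57 and 0.995 in the other SAHA arrays, against controls from 0.15 to 1.10. UQCRH, the hinge protein that binds cytochrome c1, was at 2.23 and at 1.54 and 1.47, against controls from 1.16 to 1.66. Without SAHA replicate 1 the log2 fold change fell from 0.41 to 0.10 for UQCR10 and from 0.37 to 0.13 for UQCRH, and the median of the 6 small subunits from 0.31 to 0.13. All 6 stayed above 0 with any 1 array left out. Within replicate numbers, 5 of the 6 were above the controls in replicate 1, 4 in replicate 2 and 4 in replicate 3. Over all 83 genes, the spread of SAHA replicate 1 around the mean of each gene over all 8 arrays was the largest (SD 0.29, against 0.20 to 0.26 on the other arrays). Its part in the complex III values was not tested further. CYCS, cytochrome c, was at 1.77, 1.18 and 1.21 with SAHA and from 0.88 to 2.04 in the controls, and the mean log2 difference was 0.01 (standard error 0.24).

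Complex IV, cytochrome c oxidase, had 9 genes above 0 and 7 below, with a median log2 fold change of 0.029. It turned to -0.043 without SAHA replicate 3, -0.040 without EtOH replicate 3 and -0.0029 without EtOH replicate 1, and was 0.11 without SAHA replicate 2, so its direction rests on single arrays. Of its 9 widely expressed subunits 6 were positive (median 0.15, but 0.046 if SAHA replicate 1 is left out and 0.27 if SAHA replicate 2 is), and of the 6 isoforms restricted to certain tissues 4 were negative (median -0.13). Only COX6B1 and COX6A1 among them passed an unadjusted p under 0.05 on the higher side and COX6A2 on the lower. COX6A1, a regulatory subunit, was at 2.63, 2.79 and 3.02 in untreated cells, at 2.68 and 2.43 with EtOH and at 3.33, 2.97 and 3.20 with SAHA. SAHA replicate 2 lay under untreated replicate 3, so the groups overlapped. SAHA was higher by 0.46 log2 units on average (standard error 0.14, 1.37-fold, adjusted p = 0.16). Its muscle isoform COX6A2 had -0.25 (standard error 0.11, adjusted p = 0.32), with SAHA at 0.69, 0.71 and 0.83 and controls from 0.79 to 1.22.

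The isoform pairs of complex IV gave no called difference. COX4I1, the common form of the nuclear core subunit, had a log2 fold change of 0.18, and its counterpart COX4I2, known from lung, of -0.19. COX7A1, the muscle form, was at 1.30, 1.01 and 1.14 in untreated cells, at 0.75 and 0.62 with EtOH and at 0.49, 0.68 and 0.78 with SAHA. Both EtOH arrays fell in or near the SAHA range. SAHA minus the combined controls was -0.31 log2 units (standard error 0.15, adjusted p = 0.37) and -0.50 over untreated cells (adjusted p = 0.088), while COX7A2, the common form, had -0.03 over the combined controls. COX8A, the smallest nuclear subunit, had -0.25 (standard error 0.15, adjusted p = 0.45), COX5B 0.19 (standard error 0.10, adjusted p = 0.43) and COX7B 0.15. COX6B2 had 0.01, COX7B2 0.06 and COX8C -0.08, all at levels under the array medians.

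**Figure D3:**
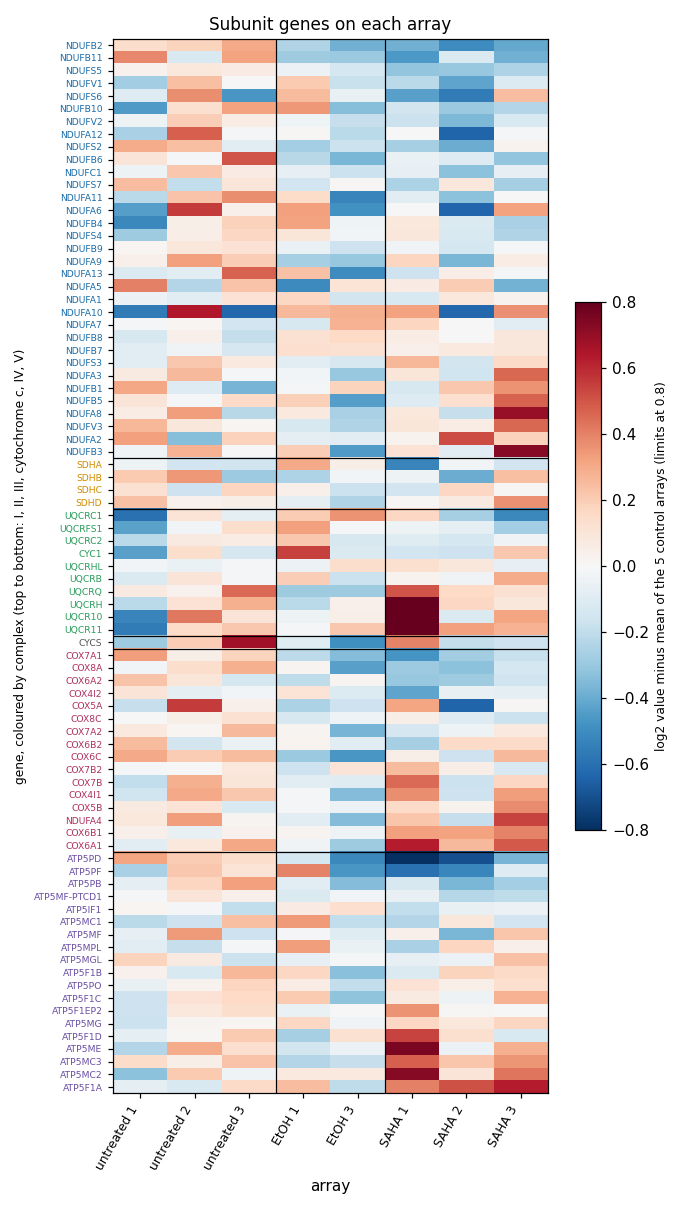
Log2 expression of the 83 subunit genes (rows, coloured and grouped by complex) on the 8 arrays (columns), each minus the mean of the gene over the 5 control arrays, with colours limited at 0.8. No block of rows has the same colour over all 3 SAHA columns; SAHA replicate 1 carries the strongest values, as for UQCR11, UQCR10 and UQCRH, and EtOH replicate 3 is below the control mean in most rows.

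In complex V, the ATP synthase, 11 genes were above 0 and 8 below (median 0.072, and 0.017 to 0.14 with each array left out), and the extremes of both sides were in it or in complex III. All 4 measured genes of the catalytic head and its stalk were positive, with a median log2 fold change of 0.14, though ATP5F1A alone passed an unadjusted p under 0.05. ATP5F1B, the beta subunit with the catalytic sites, had 0.07 and ATP5F1C, the gamma subunit, 0.10. Without EtOH replicate 3 there were 3 positive genes of 4. The c ring, which turns as protons pass, is encoded by 3 genes that give the same mature protein. On the log2 scale SAHA minus controls was 0.42 for ATP5MC2 (standard error 0.15, adjusted p = 0.23), 0.35 for ATP5MC3 (standard error 0.13, adjusted p = 0.22) and -0.10 for ATP5MC1 (standard error 0.15, adjusted p = 0.81). ATP5MC2 was at 4.50, 3.88 and 4.21 with SAHA and from 3.45 to 3.99 in the controls, so SAHA replicate 2 was inside the control range. ATP5IF1, the inhibitor that holds the enzyme when the membrane potential is lost, had -0.10 (standard error 0.10, adjusted p = 0.67).

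The peripheral stalk, which keeps the catalytic head from turning with the ring, had 3 of 4 genes below 0 and a median log2 fold change of -0.33. ATP5PD, its d subunit, was at 3.22, 3.11 and 3.04 in untreated cells, at 2.76 and 2.39 with EtOH and at 1.99, 2.20 and 2.53 with SAHA. Untreated cells were highest and both EtOH arrays lower, with EtOH replicate 3 inside the SAHA range. Over the combined controls the log2 difference was -0.67 (standard error 0.19, 0.631-fold, adjusted p = 0.14). It was -0.88 over untreated cells (standard error 0.16, adjusted p = 0.041), which is a call, and -0.34 over EtOH (adjusted p = 0.46). With the replicate block the adjusted p over untreated cells was 0.18. ATP5PF, the coupling factor 6 subunit, had -0.41 over the combined controls (standard error 0.20, adjusted p = 0.35), and SAHA arrays at 3.55, 3.62 and 4.04 overlapped controls from 3.68 to 4.54. ATP5PB and ATP5PO, named after their values were seen, had -0.25 and 0.10.

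**Figure D4:**
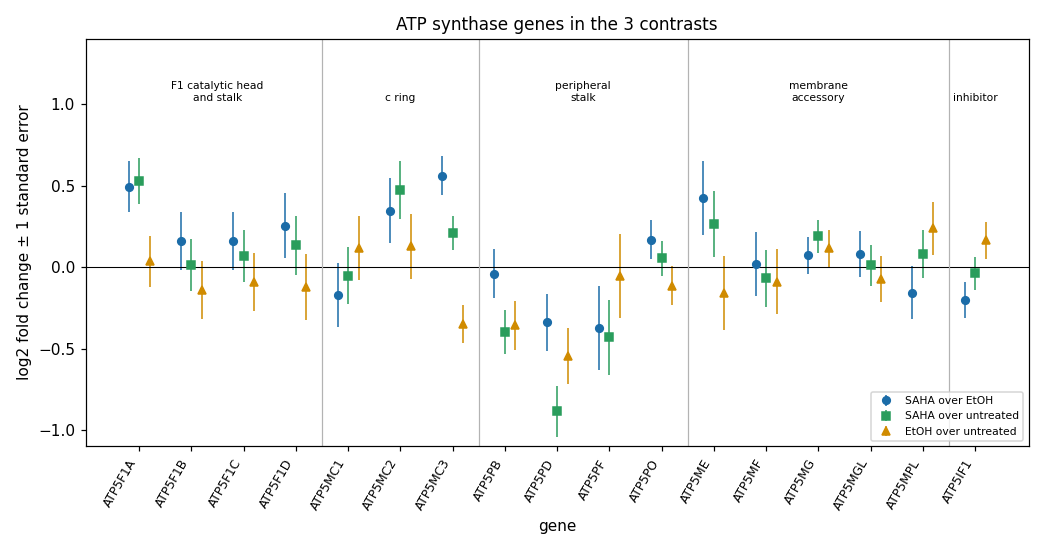
Log2 fold changes with 1 standard error (limma, 3-group fit) of 17 ATP synthase genes in the contrasts SAHA over EtOH, SAHA over untreated and EtOH over untreated, grouped by place in the enzyme; the pseudogene and the readthrough are left out. ATP5PD and ATP5PB are below 0 in SAHA and in EtOH against untreated cells, and ATP5F1A is near 0.5 against either control.

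The 3 groups were then compared in pairs, to set the vehicle beside the drug. Against EtOH, 0 of the 83 genes were called higher (0.0864% of all genes) and 0 lower (0.0162% of all genes). At an unadjusted p under 0.05, 7 were higher (8.43%, against 4.53% of all genes) and 1, SDHA, was lower (1.2%, against 8.41%). The 2 replicate numbers with an EtOH array differed here. SAHA minus EtOH had a median of -0.0023 over the 83 genes within replicate 1, with 40 above 0 and 42 below. Within replicate 3 it was 0.20, with 63 above and 20 below. Against untreated cells, 0 were called higher (0.454% of all genes) and 2 lower (0.335% of all genes), namely NDUFB2 and ATP5PD. At an unadjusted p under 0.05, 5 were higher (6.02%, against 6.62% of all genes) and 11 were lower (13.3%, against 9.89%). The call of NDUFB2 or ATP5PD did not withstand every array being left out. The count was 0 without any of the 3 untreated arrays or without SAHA replicate 1 or 2, 1 without SAHA replicate 3 and 2 without either EtOH array. With the replicate block it was 0.

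The mean of the 2 EtOH arrays was under that of the untreated arrays in most subunit genes, mainly through EtOH replicate 3. For EtOH over untreated, the median log2 fold change was -0.13 over the 83 genes and 0.006 over all genes, and 57 of the 83 were negative. In limma 0 genes were called higher (0% of all genes) and 0 lower (0% of all genes), with no adjusted p under 0.42. At an unadjusted p under 0.05, 11 subunit genes were lower (13.3%, against 4.21% of all genes) and 0 higher (0%, against 5.53%). They were 5 genes of complex I, 1 of complex III, 2 of complex IV and 3 of complex V. All 16 complex IV genes were negative, with a median of -0.21 (15 of 16 with the replicate block), and 22 of 33 in complex I and 13 of 19 in complex V. Complex III differed in sign, with 8 of 10 genes positive, though 4 of 10 without untreated replicate 1.

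The lower values with EtOH came mainly with EtOH replicate 3. Within replicate 1, EtOH minus untreated had a median of 0.021 over the 83 genes, with 44 above 0 and 38 below. Within replicate 3 it was -0.21, with 18 above and 64 below. Over all genes the medians were 0.019 and 0. Without EtOH replicate 3 the median over the 83 genes was -0.056. Then 13 of 16 complex IV genes were negative, but only 17 of 33 in complex I and 9 of 19 in complex V. The median of complex V turned from -0.089 to 0.012. Without untreated replicate 2, which has no EtOH partner, the median over the 83 genes was -0.095, with 55 negative. EtOH replicate 3 was the lowest of the 8 arrays in 25 of the 83 genes, and SAHA replicate 2 followed with 15. The same count was not made over all genes. A few genes were as low in both EtOH arrays. COX6C, a small subunit of complex IV picked here after its values were seen, was at 1.85, 1.75 and 1.80 in untreated cells, at 1.25 and 1.08 with EtOH and at 1.59, 1.38 and 1.81 with SAHA. Its EtOH arrays lay below all others, and EtOH minus untreated was -0.63 log2 units (standard error 0.14, adjusted p = 0.42). EtOH has only 2 arrays here, and whether the third, left out by the study, would move these values cannot be told.

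**Figure D5:**
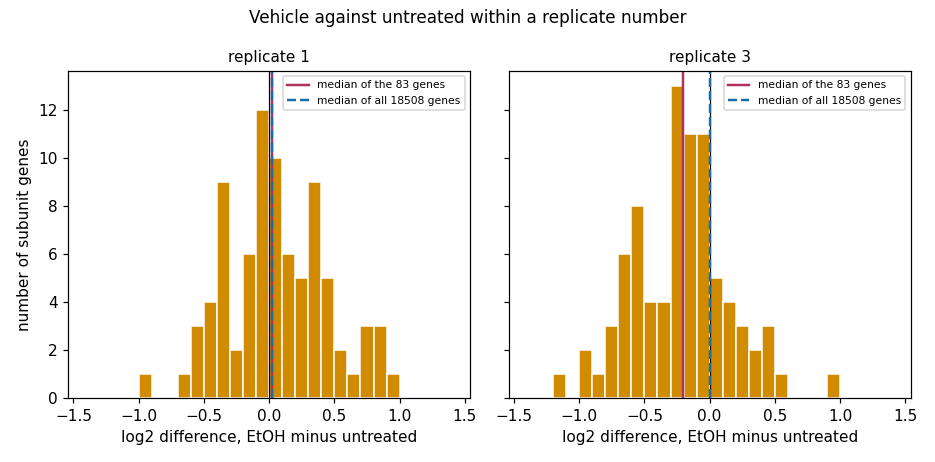
Number of subunit genes by log2 difference of EtOH minus untreated within replicate 1 (left) and replicate 3 (right), with the median of the 83 genes (solid) and of all 18508 genes (dashed). The medians nearly coincide in replicate 1, at 0.021 and 0.019, and differ in replicate 3, at -0.21 and 0.

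Within replicate numbers, SAHA minus controls also varied for the whole set. The median over the 83 genes was 0.013 in replicate 1, -0.15 in replicate 2 and 0.073 in replicate 3, against -0.059, -0.024 and -0.019 over all genes. For 9 subunit genes the difference was positive in all 3 (10.8%, against 10.7% of all genes) and for 12 negative in all 3 (14.5%, against 17.8%). Relative to the control mean of each gene, the median of the set was -0.040 to 0.097 on the untreated arrays, -0.014 and -0.15 on the EtOH arrays and -0.092 to 0.043 on the SAHA arrays, so the groups overlapped.

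The start regions of these genes were read in RefSeq (GRCh38.p14), as windows from 250 bases before to 50 after a start, for 65 of the 83 genes (76 windows). Motifs were searched by their letters on both strands and do not overlap in the stretches shown. The ETS core CCGGAAG, read by GABP, was in 26.3% of the windows, against 10.3% of the 35116 windows of all genes. The NRF1 core GCGCATGC was in 21.1%, against 3.05%, and the YY1 core AAGATGGC in 17.1%, against 2.89%. The TATA box letters TATAAA were in 9.21%, against 11.5%. The 19 genes with an ETS core had a median log2 fold change with SAHA of 0.15, with 13 positive, and the 46 without it of -0.08, with 18 positive. For the NRF1 core the medians were 0.01 (15 genes) and -0.02 (50 genes). For the YY1 core they were -0.08 (12 genes, 4 positive) and 0.01 (53 genes, 27 positive), opposite in order to the ETS core. These are descriptions, and a match of letters is not a site.

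The 250 bases before the start are shown for 3 genes with some of the smallest p-values on the higher side (COX6B1, COX6A1, UQCR11) and for the 2 genes called against untreated cells (ATP5PD, NDUFB2). They are written in the direction of the gene, with ETS and NRF1 cores in capitals. They lie at chr19:35648073-35648322 (plus strand), chr12:120437863-120438112 (plus), chr19:1605463-1605712 (minus), chr17:75046970-75047219 (minus) and chr7:140696458-140696707 (plus).
COX6B1: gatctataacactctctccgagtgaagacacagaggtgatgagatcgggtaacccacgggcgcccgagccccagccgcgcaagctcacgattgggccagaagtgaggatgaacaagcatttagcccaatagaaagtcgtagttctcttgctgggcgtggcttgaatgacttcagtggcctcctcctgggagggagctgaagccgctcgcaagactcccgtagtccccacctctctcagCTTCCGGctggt
COX6A1: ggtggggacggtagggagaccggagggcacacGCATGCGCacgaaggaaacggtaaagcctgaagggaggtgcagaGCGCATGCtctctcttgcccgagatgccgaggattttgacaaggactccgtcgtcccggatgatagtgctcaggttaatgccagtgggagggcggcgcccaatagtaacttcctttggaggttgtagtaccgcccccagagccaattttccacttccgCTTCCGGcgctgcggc
UQCR11: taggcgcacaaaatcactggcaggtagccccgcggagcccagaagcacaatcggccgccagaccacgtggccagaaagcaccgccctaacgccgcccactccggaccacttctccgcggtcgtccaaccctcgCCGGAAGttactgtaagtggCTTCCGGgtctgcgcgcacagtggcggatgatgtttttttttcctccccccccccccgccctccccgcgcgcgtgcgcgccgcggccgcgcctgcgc
ATP5PD: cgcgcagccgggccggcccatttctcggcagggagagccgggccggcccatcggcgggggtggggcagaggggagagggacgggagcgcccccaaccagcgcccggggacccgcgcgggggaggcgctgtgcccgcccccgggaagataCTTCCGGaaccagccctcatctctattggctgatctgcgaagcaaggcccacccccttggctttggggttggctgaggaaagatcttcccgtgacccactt
NDUFB2: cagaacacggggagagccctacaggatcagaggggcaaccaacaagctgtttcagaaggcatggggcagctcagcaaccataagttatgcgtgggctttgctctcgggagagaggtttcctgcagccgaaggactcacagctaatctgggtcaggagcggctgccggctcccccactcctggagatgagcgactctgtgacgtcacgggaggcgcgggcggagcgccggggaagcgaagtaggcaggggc
COX6A1 holds 2 NRF1 cores and 1 ETS core, UQCR11 holds 2 ETS cores, and COX6B1 and ATP5PD hold 1 each, though their expression differed in direction. The NDUFB2 stretch holds none of the 4 motifs. These genes were picked after their values were seen and do not stand for the rest. Of the other genes higher at an unadjusted p under 0.05, ATP5F1A has an ETS core in its windows. ATP5MC2 has an NRF1 core but no ETS core, and ATP5MC3 has no window.

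Genes that serve the chain were read from lists beside the subunits, and none of their genes was called. Of 50 assembly factors measured, which build the complexes without staying in them, 0 were higher and 7 lower at an unadjusted p under 0.05 (5.82% and 9.58% of all genes). Of these 50, 12 had a positive value, and the median log2 fold change was -0.12 (-0.034 over all genes). TMEM126B, a complex I assembly factor, was lowest in p (-0.42, standard error 0.09, adjusted p = 0.064), with SAHA at 0.47, 0.60 and 0.47 and controls from 0.83 to 1.03. The complex I factor NDUFAF2 had -0.29 (adjusted p = 0.17). Of 12 regulators of mitochondrial biogenesis 9 were negative, with a median of -0.22. GABPA, a subunit of the ETS factor GABP, had 0.32 and the coactivator PPRC1 -0.33, with adjusted p-values of 0.22 and 0.23. Of the 6 subunits and paralogs outside the symbol rule, 5 were negative, and DMAC2L, the factor B subunit of ATP synthase, had -0.44 (adjusted p = 0.17) and HIGD1A 0.22 (adjusted p = 0.48).

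The pathways that feed the chain differed from each other. Of 18 citric acid cycle genes 2 were higher and 2 lower at an unadjusted p under 0.05 (5.82% and 9.58% of all genes). Among the lower ones DLST, a subunit of the oxoglutarate dehydrogenase complex, had -0.32 (adjusted p = 0.21). Of 13 genes of coenzyme Q synthesis 0 were higher and 2 lower (5.82% and 9.58% of all genes). COQ2, which joins the ring of coenzyme Q to its tail, had -0.76 (standard error 0.19, adjusted p = 0.095), with SAHA at 0.10, 0.59 and 0.38 below all controls (0.77 to 1.63), and COQ10B had -0.24 (adjusted p = 0.30). Of 20 glycolysis and lactate genes 8 were higher and 1 lower (5.82% and 9.58% of all genes). Of these 20, 16 had a positive value, and the median log2 fold change was 0.17 (-0.034 over all genes). ENO1, enolase, was the lower gene (-0.51, standard error 0.12, adjusted p = 0.087), and GPI, glucose phosphate isomerase, was among the higher ones (0.45, standard error 0.11, adjusted p = 0.093).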

How the data were processed

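Clariom S human arrays of ASC52telo ADSCs were analysed from the deposited table. The authors made its log2 values by RMA normalization and dropped 1 EtOH array as too dim. How several probe sets of a gene became 1 value is not given in the sources used here. Each of 18508 genes has 1 value per array, with none missing. A step that the methods do not name had given the replicate numbers equal means, within 1.1e-14.

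The values were fitted in R 4.3.3 with limma 3.58.1, SAHA against the pooled EtOH and untreated arrays, which is the contrast in the study's methods, and with 3 groups for the pairwise contrasts. No block was used. Adjusted p-values are by Benjamini-Hochberg over all 18508 genes. The fit counts 6 residual degrees of freedom, and 4 with the replicate block. Since replicate means had already been removed, the fit without block counts too many, and its p-values and intervals may be too small. Replicate numbers are shared between groups, and centring leaves no correlation that could test the pairing. The labels call the replicates biological and mark replicates 1, 2 and 3 of every group p 6, p 10 and p 16, without saying what p stands for.

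The members, lists and tests were chosen with earlier results of these data known. Named genes were those called in any comparison, the 3 of smallest p in each direction in each complex (all of complex II), CYCS, CYC1, ATP5IF1, isoform pairs, and of each list the called genes or else the 2 of smallest p. COX6C, ATP5PB, ATP5PO, ATP5F1B, ATP5F1C, NDUFA4 and the promoters shown were picked after their values were seen. Alternatives were quantile normalization, median centring, leaving out the dimmest genes (12339 left, with 78 members), intensity trend, robust variances, array weights, the replicate block, equal weight of controls, either control alone, each array left out, a fold threshold inside the test and the unpaired t-test of the methods. Data were also simulated for SAHA over combined controls (18508 genes), with 67 genes changed 1.5-fold, 67 changed 2-fold and 66 changed 4-fold. The fit without block recovered 14.9% of genes changed 1.5-fold, 74.6% changed 2-fold and 100% changed 4-fold, with 27 false calls among the unchanged genes. A call needs an estimated fold of at least 1.5, so the cutoff itself holds down the recovery of genes changed 1.5-fold. The blocked fit recovered 10.4%, 61.2% and 97.0%, and made 10 false calls. Array number limits the precision.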

Additional observations from a re-analysis of the deposited data

Results flagged for a closer look

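UQCRHL, the copy of the complex III hinge gene, was at -0.069 in EtOH replicate 3, while the other 4 control arrays lay between -0.26 and -0.22. This array's gap to the others is unusually wide for 5 values. All are below the array medians. Chance marks about 1 in 20 such groups, and here 1 of 83 subunit genes (1.2%) and 4.5% of all genes were marked.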

How the results depend on the processing

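The counts of 0 called subunit genes against the combined controls were the same under every alternative run, except that 2 were called lower with untreated arrays only as control, NDUFB2 (adjusted p = 0.041) and ATP5PD (adjusted p = 0.047). Against untreated cells in the 3-group fit the count of 2 was 2 with median centring, 0 with the replicate block, and 0 to 2 with each array left out. The block changed no other call. At an unadjusted p under 0.05, 6 members were higher and 2 lower with the replicate block, and 4 higher and 3 lower in the methods' t-test, where 0 were called after Benjamini-Hochberg adjustment with the fold. The lower members were 9 with array weights or without EtOH replicate 3, 12 with untreated arrays only, and 2 with EtOH arrays only or without SAHA replicate 2. The higher ones were 3 without SAHA replicate 1 and 10 without SAHA replicate 2. The median log2 fold change of the 83 genes was 0.027 with quantile normalization, 0.039 with median centring, 0.065 with EtOH arrays only, and -0.044 to 0.043 with each array left out.

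Of 756 values of named genes under alternatives, 720 kept direction and side of the threshold, 2 passed it (above) and 34 turned sign. They were COX7A2 (0.027) and CYC1 (0.019) with quantile normalization, COX7A2 (0.012) and CYC1 (0.0082) with median centring, and CYCS (-0.093) with array weights. With EtOH arrays only they were COX7A2 (0.14), COX8C (0.0048) and SDHB (0.070), and with untreated arrays only COX6B2 (-0.0063), CYC1 (0.11), CYCS (-0.18) and SDHC (-0.036). The cause was not tested. With each array left out the values ran from -0.0582 to 0.153 for COX6B2, -0.123 to 0.0338 for COX7A2, -0.00208 to 0.309 for COX7B, -0.0342 to 0.151 for COX7B2, and from -0.159 to 0.103 for CYC1, -0.176 to 0.183 for CYCS, -0.218 to 0.101 for SDHB and -0.0736 to 0.0874 for SDHC.

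No depth or signal over background is given with these values, so low genes are judged by the array medians alone.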
